A study of Mus musculus with 2 samples.

Results

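The cells described here were mouse lung conventional dendritic cells of type 1 (cDC1s) that carried transcripts of cell division. They were chosen by counts of single genes and not by clustering. Of 10901 cell barcodes in 6 matrices, 10088 had at most 20% mitochondrial transcripts, at most 20000 unique molecular identifiers (UMIs, each standing for 1 captured RNA molecule) and at least 500 genes. Among these, 321 cells had at least 2 UMIs of Xcr1, Clec9a, Cadm1 and Itgae together, at least 1 UMI of Irf8, none of Fscn1, none of Cd79a, Cd3g or C1qa, and fewer than 10 UMIs per 10000 of the alveolar macrophage genes Chil3, Ear1 and Krt79. Of those 321 cDC1s, 59 had at least 5 UMIs of Top2a, Mki67, Birc5, Cdk1, Pclaf and Rrm2 together and are called cycling, and the other 262 are called non-cycling.

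The cells came from lungs of female C57BL/6J mice in a model of allergic asthma with ovalbumin (OVA), in which alum is the adjuvant. The control pool received alum without OVA by intraperitoneal injection and intranasal saline. The asthma pool received OVA with alum and then intranasal OVA, and the tolerance pool inhaled OVA before that same protocol. Each treatment was 1 pool of mice, told apart by hashtag antibodies, so differences between treatments have no biological replicate. Every pool was loaded on the same 2 lanes, which are technical repeats and shared 0 barcodes. The dendritic cell gate took MHC-II high, CD11c high cells among those without MerTK, CD64 and Ly6C, alveolar macrophages were sorted into the same suspension, and an oligonucleotide-tagged antibody to CLEC12A stained all cells.

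cDC1s take up dying cells and present their antigens to CD8 T cells, and they depend on the transcription factors IRF8 and BATF3. Dendritic cells arise from bone marrow precursors, and some still divide after reaching the tissue. A dividing cell first copies its DNA, using replication factors whose genes are classic targets of E2F factors, and then separates its chromosomes with a spindle of tubulin, using mitotic genes that the DREAM complex represses in resting cells through elements named CHR. A separate programme, maturation, raises costimulatory molecules, chemokines and the receptor CCR7, which takes dendritic cells to the lymph node.

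The promoters of 4 genes that the results turn on are shown because they hold these elements. Each runs from 250 bases before to 50 after the transcript start, 5′ to 3′ on the gene's strand, from RefSeq for GRCm38.p6. Capitals mark matches, on either strand, to the CHR letters TTTGAA or to the E2F words TTTCCCGC, TTTCGCGC, TTTGCCGC and TTTGGCGC. Top2a, the topoisomerase that untangles sister chromosomes, lies at chr11:99024140-99024439 on the minus strand. Cdk1, the kinase that starts mitosis, lies at chr10:69352863-69353162 on the minus strand. Pclaf, a binding partner of the replication clamp PCNA, lies at chr9:65890073-65890372 on the plus strand. Clspn, a checkpoint adaptor at the replication fork, lies at chr4:126556730-126557029 on the plus strand.
Top2a: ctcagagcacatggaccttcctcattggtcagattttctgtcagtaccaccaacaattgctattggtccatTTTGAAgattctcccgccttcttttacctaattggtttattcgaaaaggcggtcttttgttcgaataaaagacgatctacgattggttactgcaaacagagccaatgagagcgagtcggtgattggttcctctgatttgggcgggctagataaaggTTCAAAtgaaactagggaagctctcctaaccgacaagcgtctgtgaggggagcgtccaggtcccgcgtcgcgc
Cdk1: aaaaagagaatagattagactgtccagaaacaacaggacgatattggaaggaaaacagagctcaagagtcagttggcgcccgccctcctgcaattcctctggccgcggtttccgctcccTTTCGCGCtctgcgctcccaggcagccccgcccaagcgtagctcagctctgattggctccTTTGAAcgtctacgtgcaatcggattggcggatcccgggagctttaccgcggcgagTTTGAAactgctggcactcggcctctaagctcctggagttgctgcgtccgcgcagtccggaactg
Pclaf: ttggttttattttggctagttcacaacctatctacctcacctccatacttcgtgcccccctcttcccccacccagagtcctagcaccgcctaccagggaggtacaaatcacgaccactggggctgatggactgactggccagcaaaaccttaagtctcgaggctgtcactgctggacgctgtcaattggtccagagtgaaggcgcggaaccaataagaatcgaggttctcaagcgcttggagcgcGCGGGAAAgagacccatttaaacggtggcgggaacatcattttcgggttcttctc
Clspn: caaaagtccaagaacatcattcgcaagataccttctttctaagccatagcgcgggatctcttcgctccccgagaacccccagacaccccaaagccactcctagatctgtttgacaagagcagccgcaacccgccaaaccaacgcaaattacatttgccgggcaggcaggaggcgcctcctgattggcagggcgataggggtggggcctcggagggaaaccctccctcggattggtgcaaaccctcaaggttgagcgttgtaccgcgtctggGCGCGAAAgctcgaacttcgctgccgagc

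Top2a held 2 CHR matches and no E2F word, Cdk1 held 2 CHR matches and 1 E2F word, and Pclaf and Clspn held 1 E2F word each and no CHR match. Of 51 promoters found for 48 of the 59 genes listed for mitosis, 36 (70.6%) held the CHR letters and 4 (7.84%) an E2F word. Of 42 promoters for 34 of the 45 genes listed for DNA replication, 6 (14.3%) held the CHR letters and 15 (35.7%) an E2F word. Among all 32851 promoters in the table the shares were 17.9% and 2.26%. Of 27 promoters of maturation genes, a list described further on, 4 (14.8%) held the CHR letters and 0 an E2F word. These are counts of letters, with no correction for base composition, and the elements were picked after matches had been seen.

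The 59 cells numbered 10 in the control, 25 in the asthma and 24 in the tolerance pool, and each lane held 5 to 16 of them per pool. Their summed depth was 95193, 271480 and 309885 UMIs in that order, and that of the non-cycling cDC1s was 485178, 863236 and 520231 UMIs. A cycling cell held a median of 11460 UMIs and 3131 genes and a non-cycling cell 6751 UMIs and 2134.5 genes. The mitochondrial share was alike, with medians of 2.91% and 3.13%. No cDC1 was among the 232 cells with the highest doublet scores of their lanes. That mark takes the top scores of each lane whatever their level, so it is not a call of doublets.

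The label was checked against markers. Levels here are UMIs per 1000000 RNA UMIs (CPM, counts scaled to depth) in the sum of all cells of a class. Of genes that the choice of cells used, Xcr1, the chemokine receptor of cDC1s, stood at 251 CPM in cycling and 356 in non-cycling cDC1s, and Irf8 at 1595 and 1688. Of genes it did not use, Batf3, the partner of IRF8, stood at 244 and 196 CPM, Tlr3, a sensor of double-stranded RNA, at 139 and 124, and Naaa, a lysosomal amidase enriched in cDC1s, at 1338 and 1397. Cd207, another cDC1 marker that it did not use, stood lower in cycling cells, at 123 against 243 CPM. It was seen in 32.2% of cycling and 42.0% of non-cycling cells. Among markers of other cells, all 6 T cell and all 6 neutrophil markers were at 0 in the cycling cells, as were Fabp1 and Marco of alveolar macrophages and Itgam of cDC2s and monocytes. Other cDC2 markers were present: Mgl2, a lectin, stood at 136 CPM in cycling and 195 in non-cycling cells, Cd209a at 28.1 and 20.3, and Sirpa at 22.2 and 12.8. The 6 B cell markers summed to 63.0 to 83.9 CPM in the cycling and 79.9 to 111 CPM in the non-cycling pools. For the 6 NK cell markers these sums were 81.0 to 116 and 92.8 to 154 CPM. The 16 alveolar macrophage markers summed to 603 to 1303 CPM in the cycling and 798 to 1682 CPM in the non-cycling pools, and the 6 monocyte markers to 303 to 567 and 531 to 1020 CPM, so these last 2 groups were highest in the control pool.

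The genes that set the choice differed in how many cells they marked. The following values chose the cells and are a description. Pclaf was seen in 56 of the 59 cycling cells and made up 28.3% of the UMIs counted over the 6 genes, followed by the proliferation antigen gene Mki67 (53 cells), by Top2a and the survivin gene Birc5 (50 cells each), by Cdk1 (45 cells) and by the ribonucleotide reductase gene Rrm2 (44 cells). Over all 321 cDC1s the distribution was split. As many as 214 cells (66.7%) had 0 UMIs of the 6 genes, 36 had 1 to 2, 12 had 3 to 4, 13 had 5 to 9 and 46 had 10 or more. The 8 cells just outside the threshold, with 4 UMIs, had a median of 27 UMIs of replication genes and 17 of mitosis genes, and the 6 cells just inside it, with 5 UMIs, had 4 and 21.

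**Figure D1:**
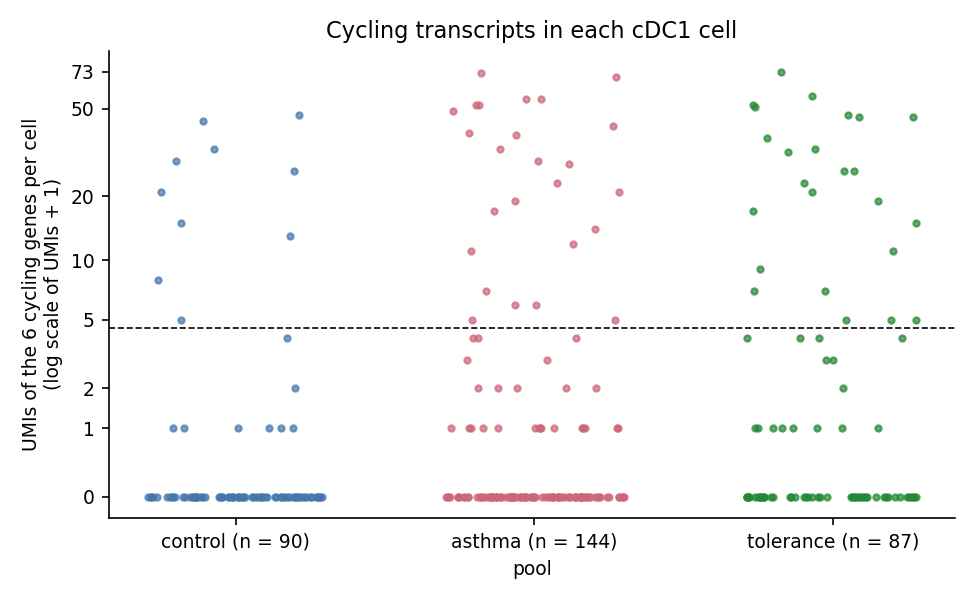
UMIs of Top2a, Mki67, Birc5, Cdk1, Pclaf and Rrm2 in each cDC1, by pool, with the limit of 5 UMIs that separates cycling from non-cycling cells. Most of the 321 cells sit at 0, and 46 of the 59 cycling cells have 10 UMIs or more.

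Cycling cells made up 10 of 90 cDC1s in the control pool (11.1%, exact 95% interval 5.46 to 19.5%), 25 of 144 in the asthma pool (17.4%, 11.6 to 24.6%) and 24 of 87 in the tolerance pool (27.6%, 18.5 to 38.2%). The order from control to tolerance was the same in lane 1 (8.77%, 15.2% and 21.1%) and in lane 2 (15.2%, 20% and 32.7%). The intervals of every pair of pools overlap, control and tolerance included, they cover counting error only, and with 1 pool a treatment there was no test. Cells were deeper in the tolerance pool, where non-cycling cDC1s held a median of 8043 UMIs against 6045 in the control and 6942 in the asthma pool. After each cell was thinned to 3000 UMIs, which left out 14 shallower cells, the shares were 8.14%, 11.5% and 17.1%. With a limit of 10 UMIs per 10000 in place of 5 UMIs they were 10.0%, 14.6% and 18.4%. Among alveolar macrophages, here cells with at least 10 UMIs per 10000 of Chil3, Ear1 and Krt79 and none of the 4 cDC1 genes or of Cd79a, Cd3g and C1qa, the same 6 genes gave 3.48%, 4.65% and 6.21%, below the cDC1 share of the same pool in each case. Macrophages were shallower, with a median of 4877 UMIs in non-cycling cells against 6751 in non-cycling cDC1s. They were not thinned, so the part of depth in this gap was not tested.

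**Figure D2:**
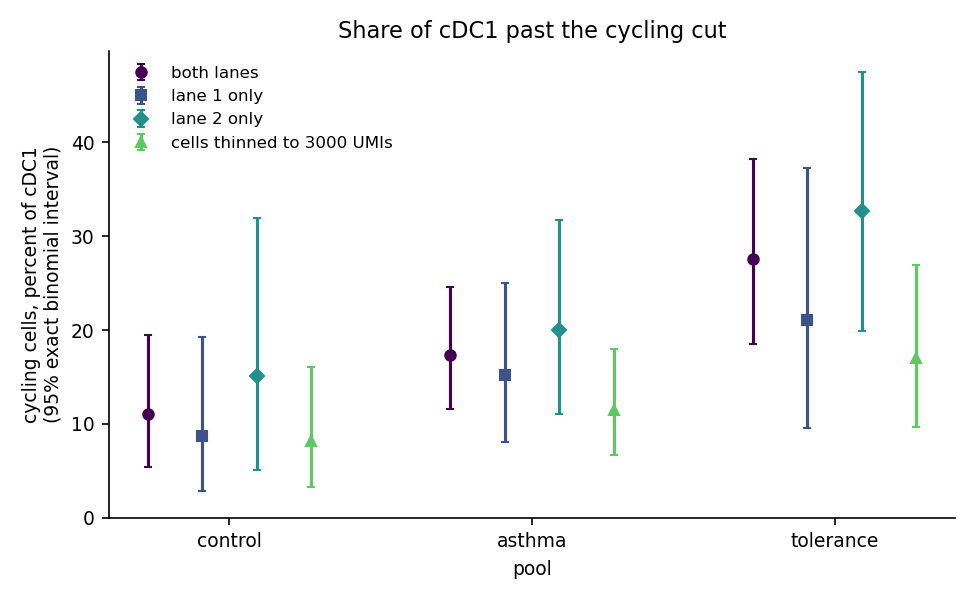
Percent of cDC1s that were cycling in the control, asthma and tolerance pools, with exact 95% binomial intervals that cover counting error only. Points are shown for both lanes, for each lane alone and for cells thinned to 3000 UMIs. With both lanes the shares are 11.1%, 17.4% and 27.6%.

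Cycling cells differed among themselves in which stage their transcripts marked. Per 10000 UMIs, they held 1.57 to 69.6 UMIs of replication genes (median 34.7) and 5.25 to 139 UMIs of mitosis genes (median 53.8), neither count including the 6 genes of the rule. Non-cycling cells had medians of 4.42 and 4.72. Mitosis transcripts outnumbered replication transcripts in 39 of the 59 cells (66.1%, exact 95% interval 52.6 to 77.9%), and in 13 cells the 2 counts lay within 1.5-fold of each other. By pool these were 6 of 10, 18 of 25 and 15 of 24 cells in the control, asthma and tolerance pools. The share depended on the lane, at 52.0% of the 25 cells of lane 1 and 76.5% of the 34 cells of lane 2. Since the lists differ in size and in how strongly their genes are transcribed, the crossing point is not a boundary between phases.

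The limit of 5 UMIs also left out cells with many transcripts of replication genes. Of the 262 non-cycling cDC1s, 32 (12.2%) held at least 20 UMIs of replication genes per 10000, a level chosen after the values were seen, and so did 38 of the 59 cycling cells. These 32 were 7 of 80, 15 of 119 and 10 of 63 cells of the control, asthma and tolerance pools. Of them, 16 had 0 UMIs of the 6 genes, and their median count of mitosis genes was 6.72 per 10000. The non-cycling class is therefore a range below a limit and cannot be taken as a class of resting cells. Whether these 32 cells were copying their DNA was not tested.

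**Figure D3:**
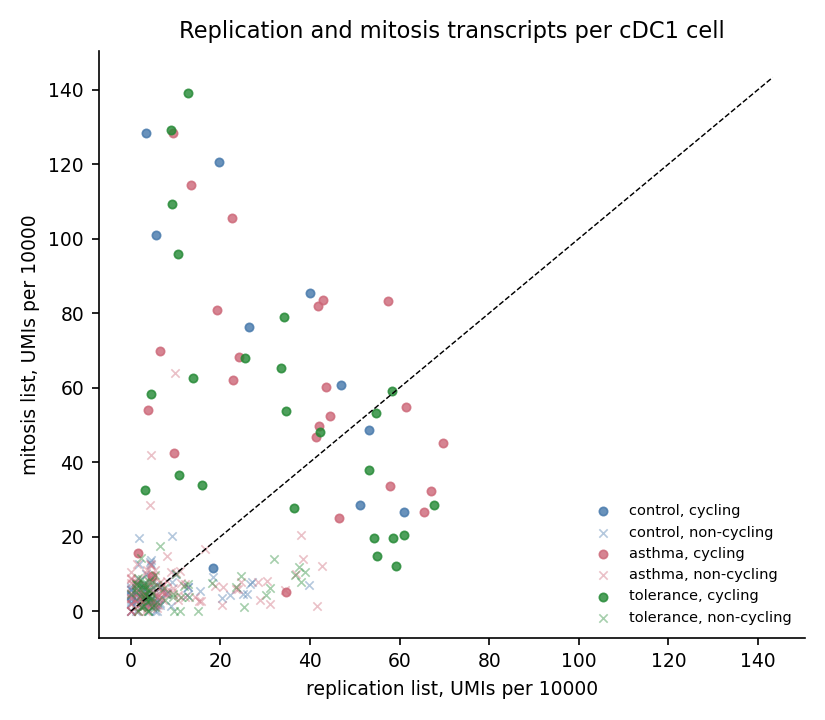
UMIs of replication genes against UMIs of mitosis genes, per 10000 UMIs, 1 point for each of the 321 cDC1s, with cycling and non-cycling cells marked. The 59 cycling cells spread from 5.25 to 139 for mitosis genes, and 32 non-cycling cells reach 20 or more for replication genes.

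Counts were then summed over the cells of each class in each pool and compared, cycling against non-cycling, in a fit with the pool as a block. A log2 fold change is the fitted difference, cycling minus non-cycling, and adjusted p-values come from quasi-likelihood tests in edgeR, adjusted by Benjamini-Hochberg over 4903 genes. They measure the spread between 3 pools. The fit left 2 residual degrees of freedom, so edgeR drew each gene's variance toward that of the other genes, and the p-values rest on both. The 3 pools are also 3 treatments, so a class difference that varied by treatment is part of that spread. Of these genes, 436 (8.89%) were higher and 285 (5.81%) lower at an adjusted p under 0.05, and the median over all genes was -0.02. Genes on 7 lists of cell division accounted for 128 of the higher and 2 of the lower. Since cells were chosen by division transcripts, these are given below by level alone, without a test. Counts of genes higher in all 3 pools, and pools without overlap, are descriptions. The share of all 4903 genes with either pattern is not given here. Leaving out the tolerance pool left 273 genes called (218 higher, 55 lower), leaving out the asthma pool 473, and lane 1 or lane 2 alone gave 216 and 391.

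Mitosis genes had the highest median fold change of the division lists, apart from the 6 genes of the rule. Of 45 tested, 44 were higher in all 3 pools, and their median log2 fold change was 4.65. Their summed level was 7501, 5912 and 5538 CPM in the control, asthma and tolerance pools of cycling cells, against 526, 651 and 594 CPM in non-cycling cells. Nusap1, which bundles spindle microtubules, had 85 UMIs in cycling and 1 in non-cycling cells. Nuf2, part of the kinetochore that ties chromosomes to the spindle, had 25 UMIs against 0, at least 23.02-fold higher (0 set to 3 counts over the class). Cenpf, another kinetochore gene, stood at 294, 107 and 126 CPM in the cycling pools and at 0, 2.32 and 0 CPM in the others. For each of these genes the cycling and non-cycling pools did not overlap.

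Replication genes were also present, at lower levels, in non-cycling cells. Of 36 tested, 34 were higher in all 3 pools, with a median log2 fold change of 1.88, and they summed to 3130, 3628 and 3592 CPM in cycling against 697, 936 and 1086 CPM in non-cycling cells. Clspn stood at 52.5, 55.3 and 67.8 CPM against 2.06, 1.16 and 3.84 CPM, and its pools did not overlap between the classes. Subunits of the replicative helicase were nearer to each other, with Mcm3 at 186 and 53.5 CPM and Mcm5 at 154 and 40.1 CPM in the sums of the classes. Timeless, a fork protection gene, was an exception on this list, at 85.7 CPM in cycling and 95.3 CPM in non-cycling cells.

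Genes that supply nucleotides followed the same direction. Their summed level was 1723, 2508 and 2482 CPM in cycling and 662, 977 and 1111 CPM in non-cycling cells, with a median log2 fold change of 1.24 over 15 tested. Tyms, which makes thymidylate, stood at 168, 228 and 123 CPM against 10.3, 9.27 and 21.1 CPM. Tk1, which salvages thymidine, stood at 137, 107 and 83.9 CPM against 2.06, 8.11 and 7.69 CPM. The cycling pools lay above the non-cycling pools for both.

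Genes of histones and chromatin held the most transcripts of the division lists, at 12020, 12230 and 10590 CPM in the cycling pools against 3009, 3274 and 3406 CPM in the others. Hmgb2, a DNA-bending protein of dividing cells and a marker given for this class, stood at 2710, 2814 and 2159 CPM in cycling against 243, 270 and 252 CPM in non-cycling cells. Stmn1, which destabilises microtubules, stood at 1187, 1157 and 829 CPM against 30.9, 62.6 and 65.4 CPM, and Tubb5, a beta tubulin, at 2238, 1908 and 1552 CPM against 247, 287 and 335 CPM. For these 3 genes the pools did not overlap. Most replication-dependent histone mRNAs lack a poly(A) tail and are captured poorly by libraries primed on it. Hist1h1b, a linker histone, still had 87 UMIs in cycling and 5 in non-cycling cells.

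**Figure D4:**
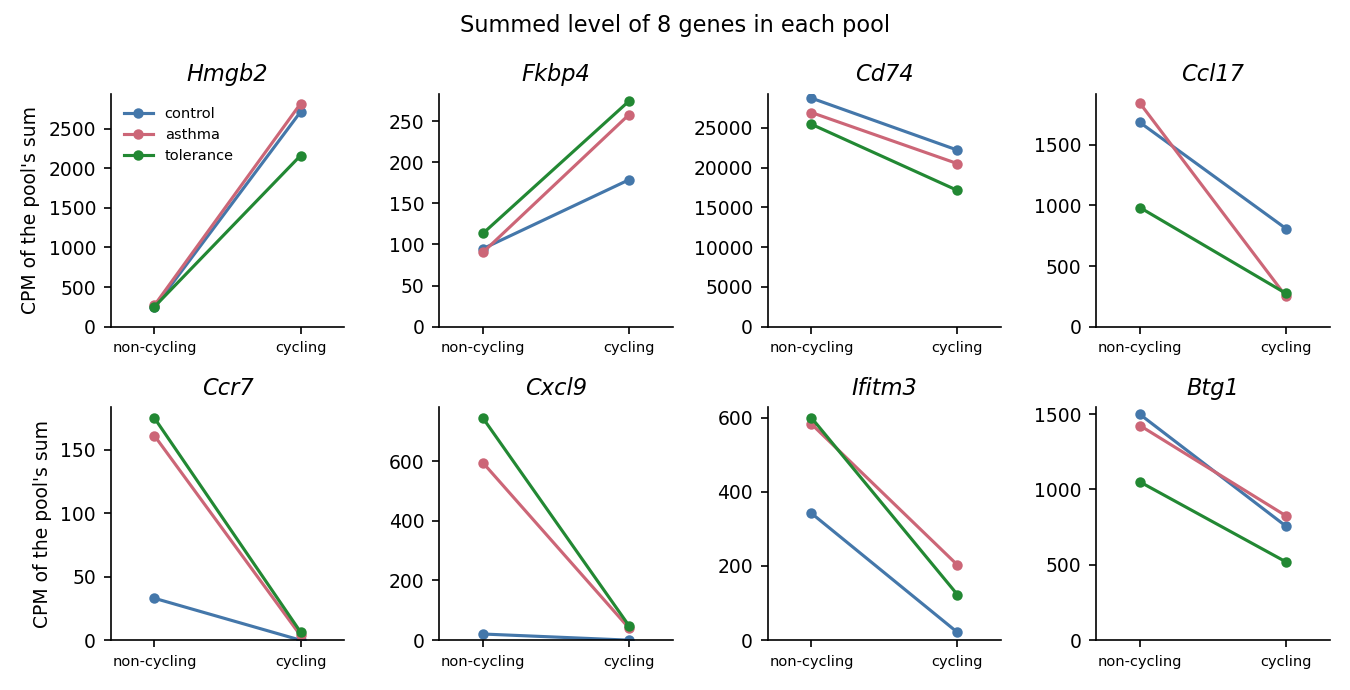
Level in CPM, on linear axes, of named genes in the summed cells of each pool, cycling beside non-cycling, with a panel for each gene. Hmgb2 and Fkbp4 lie higher in every cycling pool than in any non-cycling pool, and Ccl17, Cd74 and Btg1 lower.

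Regulators of the cycle were divided. Of 18 control genes tested, 11 were higher and 2 lower in all 3 pools, and their median log2 fold change was 0.7. Foxm1 and Mybl2, transcription factors of the mitotic genes, had 33 and 32 UMIs in cycling against 2 and 3 in non-cycling cells. The D-type cyclin genes Ccnd1 and Ccnd3, which relay growth signals, were at 341 and 169 CPM against 337 and 159 CPM. Genes listed as brakes are tested from here on, with all later lists. Of 12 tested, 2 were higher, 3 lower and 7 did not pass, with a median of -0.32 on the log2 scale against -0.02 for all genes.

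The 2 brakes that rose were INK4 inhibitors of the kinases CDK4 and CDK6. Cdkn2d stood at 116, 129 and 93.6 CPM in the cycling pools and 26.8, 24.3 and 19.2 CPM in the others (log2 fold change 2.20, SE 0.27, adjusted p = 1.53e-05). Cdkn2c stood at 105, 77.4 and 45.2 CPM against 20.6, 15.1 and 7.69 CPM (2.28, SE 0.35, adjusted p = 0.000139). For both, every cycling pool lay above every non-cycling pool. Both genes act in the division cycle, and the cells were chosen on division transcripts. Their p-values are therefore no support for a difference. The 3 that fell were Btg1, Btg2 and Gadd45b, antiproliferative or stress-induced genes. Btg1 stood at 756, 825.1 and 519.5 CPM against 1498, 1424 and 1050 CPM (log2 fold change -1.01, SE 0.13, adjusted p = 1.76e-05), without overlap. Gadd45b stood at 63.0, 47.9 and 6.45 CPM against 216, 263 and 90.3 CPM (-2.58, SE 0.29, adjusted p = 4.83e-06), again without overlap. Cdkn1a, the p21 gene, did not pass, at 378, 258 and 158 CPM against 359, 322 and 208 CPM (adjusted p = 0.229).

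Maturation and migration genes were lower in cycling cDC1s. Of 21 tested, 16 fell, 0 rose and 5 did not pass, and the median log2 fold change was -1.03. For this list and each later one with 0 in a direction, edgeR also gave 0 genes in that direction at an unadjusted p under 0.05, and DESeq2 called 0, unless other counts are given. Ccl17, a chemokine that draws CCR4-bearing T cells, stood at 809, 251 and 274 CPM in the cycling pools against 1684, 1843 and 982 CPM in the others (log2 fold change -2.03, SE 0.22, adjusted p = 3.05e-06). No cycling pool reached the lowest non-cycling pool. Ccl22, a second ligand of CCR4, stood at 94.5, 7.37 and 3.23 CPM against 284, 382 and 198 CPM (-3.99, SE 0.43, adjusted p = 3.5e-06), also without overlap, and its fold change ranged from -6.46 to -2.93 as lanes and pools were left out. Il12b, a subunit of interleukin-12, stood at 73.5, 33.2 and 3.23 CPM against 76.3, 129 and 78.8 CPM (-1.98, SE 0.41, adjusted p = 0.00259), which was not called in lane 1 alone (-1.16, adjusted p = 0.23) or without the tolerance pool (-1.41, adjusted p = 0.114).

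Few cells carried some of these transcripts. Ccr7 had 3 UMIs in 2 cycling cells and 246 UMIs in 16 non-cycling cells, a ratio of 0.0337 (exact 95% counting interval 0.0069 to 0.0996), and 5 cells held 65.0% of those 246. Ccl22 was seen in 58 non-cycling cells, 5 of which held 47.3% of its UMIs. Cells with Fscn1, which mature dendritic cells express, had been removed by the rule. That limit of 0 UMIs did not scale with depth, and cycling cells were deeper (medians of 11460 and 6751 UMIs). Its part in the maturation result was not tested. With all cells that held a Ccr7 or Ccl22 UMI left out as well, 6 of 15 maturation genes tested were lower and the median was -0.57. Lane 1 alone called 6 of 16, and without the tolerance pool 7 of 21 were called.

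Genes of antigen presentation on MHC class II were lower by a smaller amount. Of 12 tested, 7 fell, 0 rose and 5 did not pass, with a median of -0.42. Cd74, the invariant chain and one of the most abundant transcripts, stood at 22200, 20500 and 17130 CPM against 28740, 26930 and 25450 CPM (log2 fold change -0.54, SE 0.08, adjusted p = 9.89e-05, and 0.054 without the tolerance pool). H2-Eb1, a class II beta chain, stood at 6902, 5942 and 5776 CPM against 9796, 8492 and 8752 CPM (-0.64, SE 0.09, adjusted p = 5.8e-05). Every cycling pool lay below every non-cycling pool for both. Without the tolerance pool 2 of 12 were called, and lane 1 alone called 4 of 11.

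Of 18 genes of MHC class I and its peptide loading tested, 3 fell, 0 rose and 15 did not pass, with a median of -0.29. H2-T23, a nonclassical class I gene, stood at 221, 210.0 and 345 CPM against 344, 438 and 471 CPM (log2 fold change -0.80, SE 0.17, adjusted p = 0.00277, and 0.0851 without the asthma pool). The classical genes H2-K1 and H2-D1 did not pass (adjusted p = 0.163 and 0.0574). Without the asthma pool 0 of the 18 were called, and without the tolerance pool 1. DESeq2 called 1 of the 18, and the fit without the pool as a block 0.

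Interferon response genes were lower in part of the list. Of 19 tested, 8 fell, 0 rose and 11 did not pass, with a median of -0.89. The list summed to 2416, 2976 and 2646 CPM in the cycling pools against 2080, 4466 and 5588 CPM in the others. In the control pool the cycling sum was thus the higher one, and 4 of the 19 genes were lower in all 3 pools. Ifitm3, an antiviral membrane protein, stood at 21.01, 203 and 123 CPM against 342, 583 and 599.7 CPM (log2 fold change -2.13, SE 0.23, adjusted p = 3.5e-06, and -3.07 in lane 1 alone), without overlap. Isg15, a ubiquitin-like antiviral modifier, stood at 21.01, 136 and 51.6 CPM against 16.5, 351 and 569 CPM (-2.28, SE 0.33, adjusted p = 7.32e-05, with -3.30 without the asthma and -1.33 without the tolerance pool). Its control pools were alike, so the groups overlapped. Ly6e did not pass, at 1072, 1123 and 1142 CPM against 824, 975 and 1271 CPM (adjusted p = 0.911). Without the tolerance pool 3 of 18 were called, lane 1 alone called 4 of 9, and the fit without the pool as a block called 2 of 19, Isg15 not among them. DESeq2 called 3 of 28.

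Cxcl9, an interferon-gamma-induced chemokine that cDC1s use to attract CXCR3-bearing T cells, had the widest gap on the list of cDC1 genes. It stood at 0, 40.5 and 48.4 CPM in the cycling pools against 20.6, 594 and 744 CPM in the others (log2 fold change -3.98, SE 0.23, adjusted p = 2.43e-09). Both control pools were low, and in the asthma and tolerance pools the non-cycling cells stood higher. It was seen in 8 cycling and 42 non-cycling cells, and 5 of those 42 held 38.2% of the 910 UMIs in non-cycling cells. Most genes of cDC1 identity did not pass: of 26 tested, 6 fell, 0 rose and 20 did not pass, with a median of -0.33. Id2, a transcription factor of cDC1s, stood at 1261, 1149 and 819.7 CPM against 1020, 1010 and 1151 CPM (adjusted p = 0.715). Cd207, the langerin gene of lung cDC1s, was among the 6 that fell (-0.88). In lane 1 alone 0 of 20 were called, without the tolerance pool 1 of 26 and without the asthma pool 2 of 26. DESeq2 called 1 of 29, and the fit without the pool as a block 2 of 26.

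Of genes linked to dendritic cell precursors, 3 of 9 tested fell, 0 rose and 6 did not pass, and 1 of 9 was called in lane 1 alone and 1 of 9 without the tolerance pool. Lgals3, a galectin, stood at 704, 667 and 800.3 CPM against 1088, 1383 and 1290 CPM (log2 fold change -0.90, SE 0.13, adjusted p = 8.22e-05), without overlap. Csf2rb, the shared beta chain of the GM-CSF receptor, stood at 105, 107 and 142 CPM against 189.6, 177 and 290.3 CPM (-0.97, SE 0.19, adjusted p = 0.00146, and 0.111 in lane 1 alone and 0.091 without the tolerance pool). Flt3 and Kit, receptors of growth factors for precursors, did not pass (log2 fold changes -0.37 and -0.52). Of 7 genes linked to cDC2s, 1 rose and 2 fell. The one that rose, S100a4, was not called in lane 1 alone (adjusted p = 0.674) or without the control (0.0531) or tolerance pool (0.49).

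Genes of survival and cell death were called in both directions. Of 13 tested, 2 rose, 5 fell and 6 did not pass, with a median of -0.45. None was called higher in lane 1 alone, in lane 2 alone, without the tolerance pool or by DESeq2, and 2, 4, 1 and 3 were called lower in these. Bcl2a1b, an antiapoptotic BCL2 relative with near-identical copies that the alignment may not keep apart, stood at 168, 155 and 165 CPM against 443, 448 and 367 CPM (log2 fold change -1.44, SE 0.17, adjusted p = 1.02e-05, and 0.085 in lane 1 alone), without overlap. Immediate-early genes that cell dissociation induces fell in 7 of 12 tested, rose in 0 and did not pass in 5. Without the tolerance pool 3 of 12 were called, in lane 2 alone 3, and without the pool as a block 2. Junb stood at 767, 998 and 726 CPM against 2455, 1521 and 1294 CPM (-1.08, SE 0.17, adjusted p = 0.000143). The part of these genes in the maturation result was not tested.

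Protein folding genes were higher in some cases. Of 14 chaperone genes tested, 4 rose, 0 fell and 10 did not pass, with a median of 0.24. Hsp90aa1, a chaperone of kinases, stood at 1124, 1057 and 1046 CPM against 486, 619.8 and 523 CPM (log2 fold change 0.88, SE 0.13, adjusted p = 0.000109). Ppia, the cyclophilin A gene, stood at 2994, 3908 and 3943 CPM against 1507, 2267 and 2255 CPM (0.76, SE 0.10, adjusted p = 3.75e-05). Fkbp4, a cochaperone of HSP90, stood at 179, 258 and 274 CPM against 94.8, 90.4 and 113 CPM (1.21, SE 0.19, adjusted p = 0.000169). No pools overlapped for these genes, and 3 to 5 of the list were called when any pool or lane was left out.

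Metabolic genes moved little. Of 33 genes of the respiratory chain, 0 rose and 0 fell in edgeR's test, which gave 2 higher at an unadjusted p under 0.05, and DESeq2 also called 0, with a median of 0.13. Of 12 glycolysis genes, 3 rose and 1 fell, and no gene of the list was called without the tolerance pool, in lane 1 alone or by DESeq2. Gapdh stood at 420.2, 494 and 574 CPM against 189.6, 316 and 352 CPM (log2 fold change 0.69, SE 0.15, adjusted p = 0.00394), without overlap, and was not called in lane 1 alone (adjusted p = 0.0635) or without the tolerance pool (0.0766). Of 16 genes of ribosome biogenesis, 4 rose and 0 fell. Ncl, the nucleolin gene, stood at 483, 589 and 652 CPM against 332, 381 and 354 CPM (0.61, SE 0.15, adjusted p = 0.00819), and none of the list was called without the asthma or without the tolerance pool or in lane 2 alone. DESeq2, the fit without the pool as a block and the fit with cells thinned to 3000 UMIs also called 0 of the list.

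**Figure D5:**
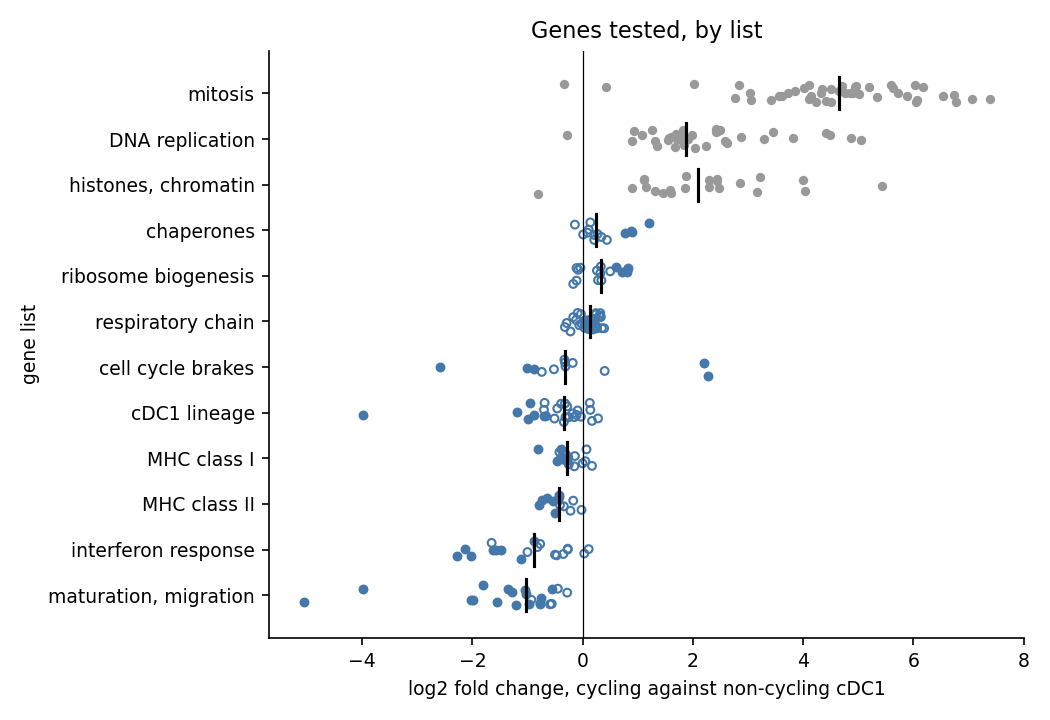
Log2 fold change, cycling minus non-cycling cDC1s, of each tested gene, grouped by list, with the list's median. Mitosis genes lie highest (median 4.65), and maturation (-1.03) and interferon response genes (-0.89) lowest among the named programmes.

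Among genes on no list, those with the largest rise included some with known roles in division, which are given without a test because the cells were chosen on division transcripts. These were Atad2, an E2F-linked chromatin ATPase, at 137, 192 and 152 CPM against 18.6, 30.1 and 17.3 CPM, Gmnn, the licensing inhibitor geminin, and Ube2s, which extends ubiquitin chains for the anaphase-promoting complex. Selenoh, a nucleolar selenoprotein, stood at 284, 273 and 265 CPM against 45.3, 64.9 and 92.3 CPM (log2 fold change 1.88, SE 0.21, adjusted p = 4.89e-06, and 1.14 in lane 1 alone), without overlap. Lsm3, a subunit of the ring that binds U6 RNA, stood at 147, 177 and 165 CPM against 39.2, 38.2 and 48.1 CPM (1.89, SE 0.22, adjusted p = 9.47e-06), also without overlap.

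Among the unlisted genes with the largest fall, Serpinb9, an inhibitor of granzyme B, stood at 21.01, 18.4 and 6.45 CPM against 39.2, 110.1 and 146 CPM (log2 fold change -3.14, SE 0.40, adjusted p = 2.5e-05, and -2.29 without the tolerance pool). Procr, the endothelial protein C receptor, stood at 0, 11.1 and 9.68 CPM against 26.8, 97.3 and 106 CPM (-3.39, SE 0.40, adjusted p = 1.08e-05), from 6 UMIs in all cycling cells. Neither gene's pools overlapped. Few cells of either class carried these 2 transcripts. Serpinb9 was seen in 8 cycling (13.6%) and 40 non-cycling cells (15.3%), which held 9 and 190 UMIs. Its shares of cells were thus closer than its levels. Procr was seen in 5 cycling (8.475%) and 44 non-cycling cells (16.8%). With each cell thinned as before, the shares were 5.085% and 10.9% for Serpinb9 and 1.695% and 11.3% for Procr. Nr4a3, an orphan nuclear receptor induced by activation, stood at 10.5, 125 and 80.7 CPM against 192, 314 and 248 CPM (-1.72, SE 0.24, adjusted p = 6.79e-05, and -2.39 in lane 1 alone), and Ifitm2, a neighbour of Ifitm3 in sequence, at 31.5, 103 and 74.2 CPM against 198, 247 and 299.9 CPM (-1.81, SE 0.23, adjusted p = 1.92e-05). Timd4, a receptor for phosphatidylserine on dying cells, stood at 52.5, 33.2 and 3.23 CPM against 113, 98.5 and 90.3 CPM (-2.16, SE 0.39, adjusted p = 0.000754, and -1.5 without the tolerance pool). These 3 genes did not overlap either.

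The CLEC12A antibody tag gave a readout that the choice of cells did not use. The protein is a C-type lectin that senses dead cells. The geometric mean of tag counts per cell (1 added to each) was 117, 112 and 92.2 on cycling and 89.8, 92.0 and 75.4 on non-cycling cDC1s of the control, asthma and tolerance pools. The log2 difference, cycling minus non-cycling, was 0.38, 0.28 and 0.29, a mean of 0.32 ± 0.06 (SD of 3 pools, exact sign-flip permutation test, two-sided, p = 0.25, the smallest that 3 pools allow). In lane 1 alone the mean was 0.22 ± 0.25 (SD), and the tolerance pool went the other way, with 70.9 on cycling and 74.4 on non-cycling cells (-0.07). Relative to RNA, per 10000 UMIs of the cell, the difference turned to -0.35. Clec12a mRNA did not pass (log2 fold change 0.28, adjusted p = 0.3).

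Within the cycling cells, pools of the 3 treatments were set side by side without a test. Log2 ratios here carry 1 added UMI, and a gene needed at least 50 UMIs over the pools compared. Of 1112 genes, 45 (4.05%) were more than 2-fold higher and 38 (3.42%) lower in the asthma than in the control pool. Of 1262 genes, 71 (5.63%) were higher and 48 (3.8%) lower in the tolerance than in the control pool. Of 1795 genes, 14 (0.78%) were higher and 23 (1.28%) lower in the tolerance than in the asthma pool. The control pool, at 10 cells, was the shallowest, both first comparisons share it, and asthma against control fell from 83 genes to 50 in lane 2 and 37 in lane 1. With 5 UMIs added instead of 1, 10 genes were higher and 39 lower in that comparison, and 24 and 60 against the control for tolerance.

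Among genes higher in the asthma than in the control cells, Ms4a6c, a membrane protein of myeloid cells, stood at 73.5, 232 and 168 CPM in the control, asthma and tolerance pools of cycling cells (log2 ratio asthma to control 1.49), and at 96.9, 197 and 146 CPM in non-cycling cells (1.00). Mif, a cytokine gene, stood at 73.5, 291 and 326 CPM (1.81) and, in non-cycling cells, at 122, 212 and 235 CPM (0.79). In both classes of cell the control pool was the lowest. Lower were Lyz2, the lysozyme gene, at 988, 265 and 171 CPM (-1.89; -1.75 in non-cycling cells), and Trf, the transferrin gene, at 420.2, 99.4 and 58.1 CPM (-2.06; -1.37). The alveolar macrophage markers, of which Lyz2 is one, were also highest in the control pools, and their part in this ratio was not tested. Ccl4, a chemokine gene, stood at 967, 262 and 261 CPM in cycling cells (-1.88) and at 423, 1066 and 886 CPM in non-cycling cells (1.33), so its order differed between the classes. That difference was not tested.

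Among the genes with the largest ratios between the tolerance and asthma pools was Il1b, the interleukin-1 beta gene. It stood at 452, 1135 and 194 CPM in cycling cells (log2 ratio tolerance to asthma -2.53) and at 1412, 754 and 536 CPM in non-cycling cells (-0.49). Nfkbia, an inhibitor of NF-kB, stood at 630.3, 468 and 109.7 CPM (-2.06; -1.24 in non-cycling cells), and Hspa1a, the inducible HSP70 gene, at 1008, 582 and 152 CPM (-1.92; -0.98). The tolerance pool was the lowest for all 3 genes. Of 12 dissociation-induced genes, 2 were more than 2-fold lower and 0 higher in this comparison, with a median of -0.36 in cycling and -0.39 in non-cycling cells, and their part in these ratios was not tested. Higher were B4galnt1, a ganglioside synthase, at 105, 33.2 and 142 CPM (1.98; -0.02 in non-cycling cells), and the sterol synthesis genes Idi1 (1.31; 0.53) and Hmgcs1 (1.29; 0.08).

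Alveolar macrophages give a second cell type that was dividing in the same libraries. A fit over both cell types asked where the cycling difference of cDC1s departed from that of 218 cycling against 4749 non-cycling alveolar macrophages. In edgeR's test over 7260 genes, 0 were called with a more positive difference in cDC1s (154 at an unadjusted p under 0.05, and 6 by DESeq2) and 22 (0.303%) with a more negative one. Without the tolerance pool 0 genes were called (486 at an unadjusted p under 0.05). Without the asthma pool 3 were called, without the control pool 46, and in lane 1 or lane 2 alone 3 and 4. Division genes were among the 22, of which 3 were replication genes, and cells of both types had been split on division transcripts. Values for the 5 genes with the largest departures are given with the observations that follow.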

How the data were processed

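The authors sequenced 2 droplet lanes and per the labels used Cell Ranger 3.1.0, STAR, Seurat 3.1.5 and the mm10 build. They deposited 6 matrices of raw UMI counts for RNA, hashtag and CLEC12A features, not normalized, with barcode and feature lists. Groups are the hashtag pools named in the labels. Strand and multimapping settings are not given in the sources used here.

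From these, 661 barcodes over the mitochondrial limit, 22 over the UMI limit and 619 under the gene limit were removed (some met more than 1). Doublet scores were computed with scanpy 1.11.5. Counts were summed by pool and class and tested with edgeR 4.0.16 (TMM, filterByExpr, glmQLFit, pool as block, threshold 0.05), checked beforehand on simulated data. DESeq2 1.42.0 was an alternative. Intervals are exact Clopper-Pearson or Poisson at 95% and cover counting error only. In each matrix, UMI totals limit the precision of low genes. Python 3.11.15, numpy 2.4.6, scipy 1.17.1, pandas 2.3.3 and R 4.3.3 were used.

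Members and the 32 gene lists (555 symbols, 3 not matched) were chosen with earlier results of these data known. Promoter motifs and the promoters shown, the level of 20 replication UMIs per 10000 and the fit without cells holding Ccr7 or Ccl22 were chosen after seeing the data. Genes were named by rule: the genes that chose the cells; up to 4 called members per list with the largest fold change, plus up to 2 uncalled where under 50% passed; the 10 highest and 10 lowest unlisted called genes with at least 100 UMIs; 8 each way per treatment pair; and 5 each way for the comparison with macrophages. A few further members were picked after their values were seen: Mcm3, Mcm5, Timeless, Ccnd1, Ccnd3, Btg2, Cd207, Flt3, Kit and Clec12a. Some named genes are not reported here.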

Additional observations from a re-analysis of the deposited data

Results flagged for a closer look

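The cycling difference of 5 genes departed between cDC1s and alveolar macrophages, by the interaction term of edgeR's quasi-likelihood fit over both cell types. Rhoc, a GTPase of cell motility, had 1 UMI in cycling and 75 in non-cycling cDC1s, a ratio of 0.0368 (exact 95% counting interval 0.00092 to 0.211), but stood at 170.4 and 234 CPM in cycling and non-cycling macrophages (interaction -4.43 on the log2 scale, adjusted p = 0.0141). Cxcl9 stood at 38.4 and 487 CPM in cDC1s and at 71.8 and 57.2 CPM in macrophages (-4.15, adjusted p = 0.00331). Timeless stood at 85.7 and 95.3 CPM in cDC1s and at 20.7 and 3.04 CPM in macrophages (-3.09, adjusted p = 0.00394). Plk4, the kinase that duplicates centrioles, stood at 59.1 and 18.2 CPM against 100.4 and 5.03 CPM (-2.72, adjusted p = 0.00394), and Cdkn2c at 66.5 and 14.5 CPM against 57.8 and 2.19 CPM (-2.54, adjusted p = 0.0321). For Timeless the larger gap lies between the non-cycling cells of the 2 types. Timeless and Plk4 act in division, Cdkn2c restrains it, and cells of both types were split on division transcripts. Depth also differed, with medians of 6751 UMIs in non-cycling cDC1s and 4877 in non-cycling macrophages. The adjusted p-values of Timeless, Plk4 and Cdkn2c are therefore no support for a difference, and the part of depth was not tested. In all 5 the departure was toward a lower or smaller difference in cDC1s, and none was called without the tolerance pool or in lane 2 alone. Cxcl9 and Timeless were called in lane 1 alone (adjusted p = 0.045 and 0.0435), without the control pool and without the asthma pool; Rhoc and Plk4 were called without the control pool (0.00988 and 0.0237) and not without the asthma pool; Cdkn2c was called in none of these.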

How the results depend on the processing

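No called gene changed sign in the 2367 values computed for 131 named genes under the alternatives. Of these values, 2134 stayed on their side of the threshold, 214 lost the call and 19 gained it. The alternative without high doublet scores removed no cDC1, so its values could not move. The tally also holds the genes of the rule and other division genes, whose direction the choice of cells favoured. The 721 genes called between cycling and non-cycling cDC1s became 201 with cells thinned to 3000 UMIs, 300 with DESeq2 (223 higher, 77 lower), 432 without the pool as a block (333 and 99), 646 without the control pool, 473 without the asthma pool and 273 without the tolerance pool (218 and 55), and 216 to 391 with either lane left out. Without a filter on low counts 898 genes were called, 456 higher and 442 lower (50.8% higher). The share of higher calls moved from 60.5% to 74.3%, 77.1% and 79.9% with DESeq2, without the block and without the tolerance pool. The 22 interaction calls became 9 with DESeq2's size factors, 37 with DESeq2 (6 more positive, 31 more negative), 46, 3 and 0 without the control, asthma and tolerance pools, and 3 to 4 with either lane left out. The cause was not tested. Thinning lowered the cycling share to 11.5% in the asthma and 17.1% in the tolerance pool and to 12.05% over all pools, a limit per 10000 UMIs gave 18.4% in the tolerance pool, and the share over all pools was 14.4% to 23.1% with either lane left out. Mitosis transcripts were the more frequent in 52.0% to 76.5% of cycling cells by lane. The CLEC12A difference was 0.22 to 0.32 by lane and reversed to -0.35 per 10000 RNA UMIs, where the denominator itself is larger in cycling cells. Genes past 2-fold, asthma against control, fell from 83 to 37 to 50 by lane, 26 at 100 UMIs or more and 49 with 5 UMIs added (10 higher, 39 lower); tolerance against control from 119 to 42 to 80 by lane and 37 at 100 UMIs or more; tolerance against asthma from 37 to 22 to 36 by lane and 8 at 100 UMIs or more. The 10 control cells limit every ratio to that pool, and 3 pools limit every p-value. The pool was the block of the reported fits.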
